A study of Rattus norvegicus with 4 samples.

Results

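Keratin and brush border genes were followed in the colon mucosa of F344 rats with chemically induced colitis. The set comprised 10 genes of 9433 with a named, tested probe: the keratins Krt7, Krt8, Krt18, Krt19 and Krt20, and the apical surface genes Vil1, Ezr, Myo1a, Alpi and Ceacam1. They were found by the gene names in the array files, with older names (Krt2-8 for Krt8, Vil2 for Ezr) resolved through the accessions, and were measured by 12 probes, each printed as 1 spot of 60 bases. In the first group, rats received resveratrol (a polyphenol of grapes) in their feed for 20 days, at 1 mg per kg and day, and then drank 5% dextran sodium sulphate (DSS), which injures the colonic epithelium, for 5 days. The rats of the second group had standard chow and the same DSS course, so every RNA came from a DSS-treated colon. Each of 4 arrays held, in Cy5, RNA pooled from 2 of the 8 resveratrol plus DSS rats and, in Cy3, a control pool from DSS rats. The control pool counts as 1 control sample. Its own spread is therefore not part of any test, and because no dyes were exchanged, a dye effect and the treatment cannot be told apart.

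Keratins are the intermediate filament proteins of epithelial cells and assemble as pairs of a type I and a type II chain. In simple epithelia such as the colon the type II chain is mainly keratin 8, partnered by the type I keratins 18, 19 and, in differentiated surface cells, 20. The filaments are anchored at desmosomes and, below the apical membrane, support the brush border, a carpet of microvilli. Each microvillus has a core of actin bundled by villin, linked to the membrane by ezrin and by the motor myosin 1a, and carries enzymes and adhesion proteins on its surface.

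Of the 10 genes, 5 were higher in the resveratrol plus DSS samples than in the control pool, namely Krt8, Krt18, Krt19, Krt20 and Myo1a, and 0 were lower (limma, Benjamini-Hochberg adjusted p under 0.05 over 18869 probes). Among all 9433 genes 25.7% were called higher and 19.6% lower. By kind, 4 of the 5 keratins and 1 of the 5 apical genes were higher. At an unadjusted p under 0.05 there were 7 higher and 0 lower. The share of all genes at unadjusted thresholds was not computed, here or below, so such counts have no background to be judged by. The median log2 ratio of the 10 genes was 0.55, against 0.016 over all genes. A log2 ratio is Cy5 over Cy3, so that positive values are higher with resveratrol, and the brightest tested probe stands for its gene. Values after ± are moderated standard errors over arrays, which draw a probe's variance toward that of all probes.

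The arrays did not contribute alike. The median ratio over the 10 genes was 0.62 on replicate 1 (9 genes with a value) and 0.72 on replicate 2 (9 genes). It was 0.09 on replicate 3 (8 genes) and 0.42 on replicate 4 (10 genes). On replicate 2 all 9 values lay above 0, while replicate 3 was split evenly, with 4 above and 4 below. Replicates 1 and 2 lay on slide 1 and replicates 3 and 4 on slide 2. The count of genes called higher was 3 of 10 without replicate 1, where 12.5% of all genes were, and 3 of the 9 still tested without replicate 2 (12.8% of all). It was 7 of 10 without replicate 3 (26.7% of all) and 3 of 9 without replicate 4 (22.2% of all). On each slide alone 8 of the genes had the 2 values needed. On slide 1 limma called 6 of these 8 higher, against 35.2% of all genes. On slide 2 it called 0 of 8, against 5.43% of all genes, both at the adjusted threshold. At an unadjusted p under 0.05, 3 of the 8 were higher on slide 2, without a share of all genes for comparison.

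**Figure D1:**
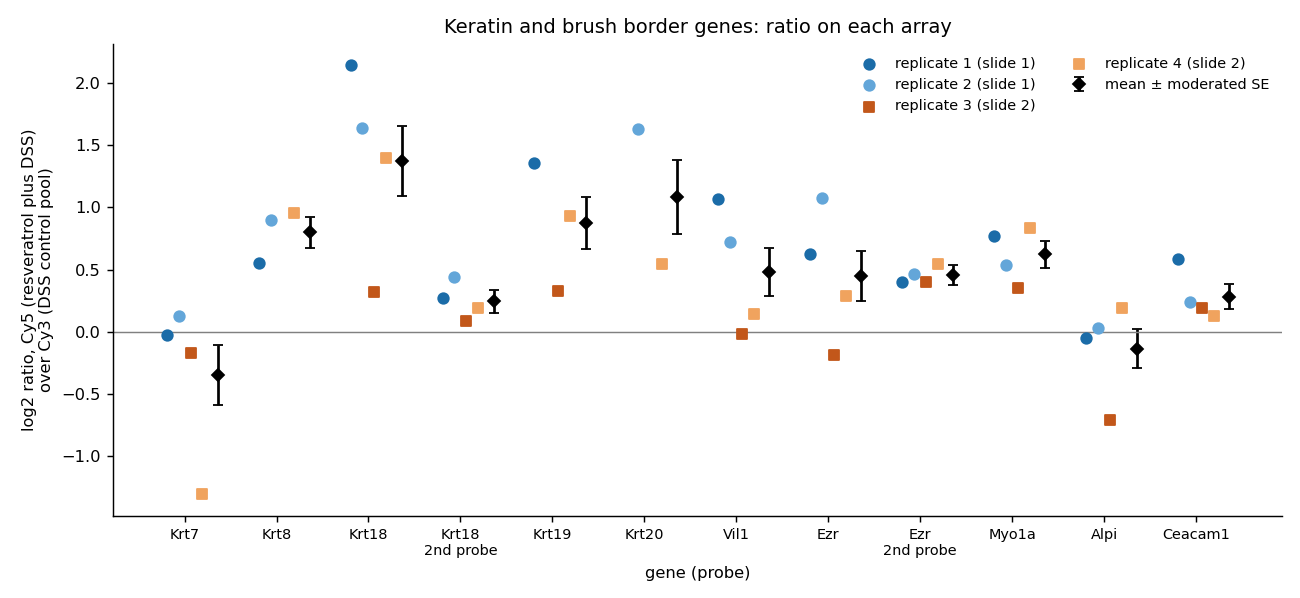
Log2 ratio (Cy5, resveratrol plus DSS, over Cy3, DSS control pool) of the 12 probes on each of the 4 arrays, with circles for slide 1, squares for slide 2 and diamonds with bars for the mean ± moderated standard error. The 4 values of the brightest Krt18 probe run between 0.32 and 2.14, all above 0, whereas Krt7 lies near 0 on replicates 1 to 3 and at -1.31 on replicate 4.

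Keratin 8, the type II partner of the simple epithelial pair, had log2 levels of 14.36, 14.57 and 14.09 in the resveratrol plus DSS samples of replicates 1, 2 and 4, against 13.81, 13.67 and 13.14 in the control pool on the same arrays. The files place its probe within chr7:140793404-140794386 (rn3), a span of 983 bases that is longer than the probe. Its spot on replicate 3 was flagged as an outlier by the scanner software and has no value in the fit. Every resveratrol plus DSS level exceeded every control level. The control levels are readings of the pool on each array and not separate control samples. For this gene and those below, the share of all genes without overlap was not counted. The log2 ratios were 0.55, 0.90 and 0.95. Their mean was 0.80 ± 0.12 (n = 3), a 1.74-fold difference (limma adjusted p = 0.00982, 95% interval 0.48 to 1.12). The gene missed the threshold without replicate 2 (adjusted p = 0.0543).

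Krt18 encodes the type I partner of keratin 8 and was measured by 2 probes. Both are shown with the Krt8 probe, because the 2 Krt18 probes gave different calls; capitals in the second Krt18 probe mark 2 overlapping runs of 9 bases, CGTAAGGTC, which recurs in the Krt19 probe, and AAGGTCGTG, which recurs in the Krt20 probe.

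Krt8 probe: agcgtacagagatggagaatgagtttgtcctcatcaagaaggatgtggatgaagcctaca
Krt18 brightest probe: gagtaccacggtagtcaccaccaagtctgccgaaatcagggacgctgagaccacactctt
Krt18 second probe: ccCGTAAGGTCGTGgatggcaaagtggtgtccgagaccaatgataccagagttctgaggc

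At the brightest Krt18 probe the log2 levels were 14.90, 14.65, 13.88 and 14.22 in the resveratrol plus DSS samples, against 12.76, 13.01, 13.56 and 12.83 in the control pool. Treated and control levels did not overlap, and replicate 3 had both the lowest treated and the highest control level. The log2 ratios were 2.14, 1.64, 0.32 and 1.40, with a mean of 1.38 ± 0.28 (n = 4, SD over arrays 0.77), or 2.60-fold (limma adjusted p = 0.0139). It was 1.89 on slide 1 and 0.86 on slide 2.

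The second Krt18 probe gave log2 ratios of 0.27, 0.44, 0.08 and 0.19. All 4 lay above 0 and below those of the brightest probe on the same array. Their mean was 0.25 ± 0.09 and did not pass (limma adjusted p = 0.0674), except without replicate 3 among the single-array omissions (0.0486). The per-array difference, brightest minus second, was 1.88, 1.20, 0.24 and 1.21, with a mean of 1.13 (SD 0.67, n = 4). With both probes averaged, Krt18 had a mean of 0.81 and still passed (limma adjusted p = 0.0153). An exact sign-flip test of the difference gave p = 0.125, the smallest that 4 arrays allow. The files place the brightest probe at chr10:66120715-66120774 and the second at chr2:79989405-79989464 of build rn3, whereas RefSeq places Krt18 on chromosome 7 beside Krt8. The positions given for the probes thus differ from that of the gene, and which transcripts each probe measured is uncertain.

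Krt19 and Krt20 encode the other type I keratins of the gut, Krt20 being found mainly in differentiated surface cells. Their probes are shown for the same comparison, with the runs shared with Krt18 in capitals. No 2 of the 12 probes shared a longer run than these 9 bases.

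Krt19 probe: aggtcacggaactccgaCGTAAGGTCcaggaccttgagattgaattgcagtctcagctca
Krt20 probe: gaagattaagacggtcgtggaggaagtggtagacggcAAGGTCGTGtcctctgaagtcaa

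Krt19 (chr10:89095807-89095866, rn3) had log2 levels of 14.37, 13.76 and 13.92 in the resveratrol plus DSS samples of replicates 1, 3 and 4, against 13.01, 13.43 and 12.99 in the control pool, with no overlap. Its log2 ratios of 1.36, 0.33 and 0.93 averaged 0.87 ± 0.21 (n = 3, the spot on replicate 2 being flagged), or 1.83-fold (limma adjusted p = 0.0267). Replicate 3 again had the lowest ratio in this fit, but its rank moved with the processing. In the authors' table replicate 4 was lowest for Krt18 (1.13, against 1.16 on replicate 3) and for Krt19 (0.66, against 1.09). With flagged spots kept, replicate 3 was highest for Krt18 (2.66) and Krt19 (2.60). The call was lost without replicate 1 (0.0856) and without replicate 4 (0.0867).

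Krt20 (chr10:88350460-88350519, rn3) had unflagged values on replicates 2 and 4 alone. There the log2 levels were 14.25 and 13.34 in the resveratrol plus DSS samples, against 12.63 and 12.79 in the control pool. The log2 ratios of 1.63 and 0.54 averaged 1.09 ± 0.30 (n = 2), or 2.12-fold (limma adjusted p = 0.0465). Both ratios were above 0, but with 2 values the error leans on the spread of other probes. The call was lost without replicate 1 (0.0627), on which Krt20 itself has no value, and no fit is left without replicate 2 or 4. It failed in 7 of the 13 alternative analyses that gave it a value.

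Krt7 (chr7:140252063-140252122, rn3), a type II keratin found in ductal and some other simple epithelia, was the one keratin not called. Its log2 levels ran between 8.37 and 9.78 in the resveratrol plus DSS samples, against 9.09 to 9.95 in the control pool, and the ranges overlapped. The log2 ratios were -0.03, 0.13, -0.17 and -1.31. Replicates 1 to 3 lay near 0 and replicate 4 stood apart as low in Cy5. The mean was -0.35 ± 0.24 (limma adjusted p = 0.262, 95% interval -0.93 to 0.24), and -0.024 without replicate 4 (0.857). The interval spans 0, so no change was detected in either direction.

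Promoters of 8 of the 10 genes were found in RefSeq (GRCr8, 250 bases before to 50 after the gene start), and none was matched for Krt7 and Krt19. The promoters of the Krt8 and Krt18 pair, neighbours on chromosome 7, and of Krt20 are shown because these genes were called higher together. Capitals mark TTTAT, the core of sites bound by the intestinal CDX factors, TATAAA, the TATA box, and GGGCGG, the GC box, each searched on both strands. Every TATAAA also holds a TTTAT match on the opposite strand.

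Krt8 promoter, chr7:135010290-135010589, minus strand: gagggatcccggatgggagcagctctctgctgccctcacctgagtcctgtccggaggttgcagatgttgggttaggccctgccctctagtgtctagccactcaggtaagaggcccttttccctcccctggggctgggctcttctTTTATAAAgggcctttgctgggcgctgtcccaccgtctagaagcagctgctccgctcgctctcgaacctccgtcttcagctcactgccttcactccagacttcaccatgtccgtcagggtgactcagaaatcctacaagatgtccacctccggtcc
Krt18 promoter, chr7:135035918-135036217, plus strand: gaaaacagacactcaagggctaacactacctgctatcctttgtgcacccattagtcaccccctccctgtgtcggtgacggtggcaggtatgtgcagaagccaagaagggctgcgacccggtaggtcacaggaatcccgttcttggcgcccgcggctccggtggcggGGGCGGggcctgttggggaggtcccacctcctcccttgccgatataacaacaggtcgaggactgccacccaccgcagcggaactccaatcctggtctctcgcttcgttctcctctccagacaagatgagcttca
Krt20 promoter, chr10:84890236-84890535, minus strand: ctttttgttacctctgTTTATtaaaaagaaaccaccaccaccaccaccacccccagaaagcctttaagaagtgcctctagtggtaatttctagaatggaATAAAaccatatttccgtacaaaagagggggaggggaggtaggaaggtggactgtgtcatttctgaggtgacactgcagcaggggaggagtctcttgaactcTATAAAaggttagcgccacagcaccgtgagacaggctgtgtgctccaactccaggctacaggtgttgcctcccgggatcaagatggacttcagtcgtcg

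TTTAT was found in 2 of the 8 promoters (Krt8 and Krt20), against 42.5% of all 33469 promoters in the table. TATAAA was found in the same 2, against 14.2% of all, and GGGCGG in 3 (Krt18, Vil1 and Ezr), against 33.1%. Krt8 and Krt18 thus differ in these letters although both genes were called higher. A match describes letters in this window and is not a binding site. In Krt8 the gene start falls on the letters ATG, so the windows need not lie alike around the start of transcription.

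**Figure D2:**
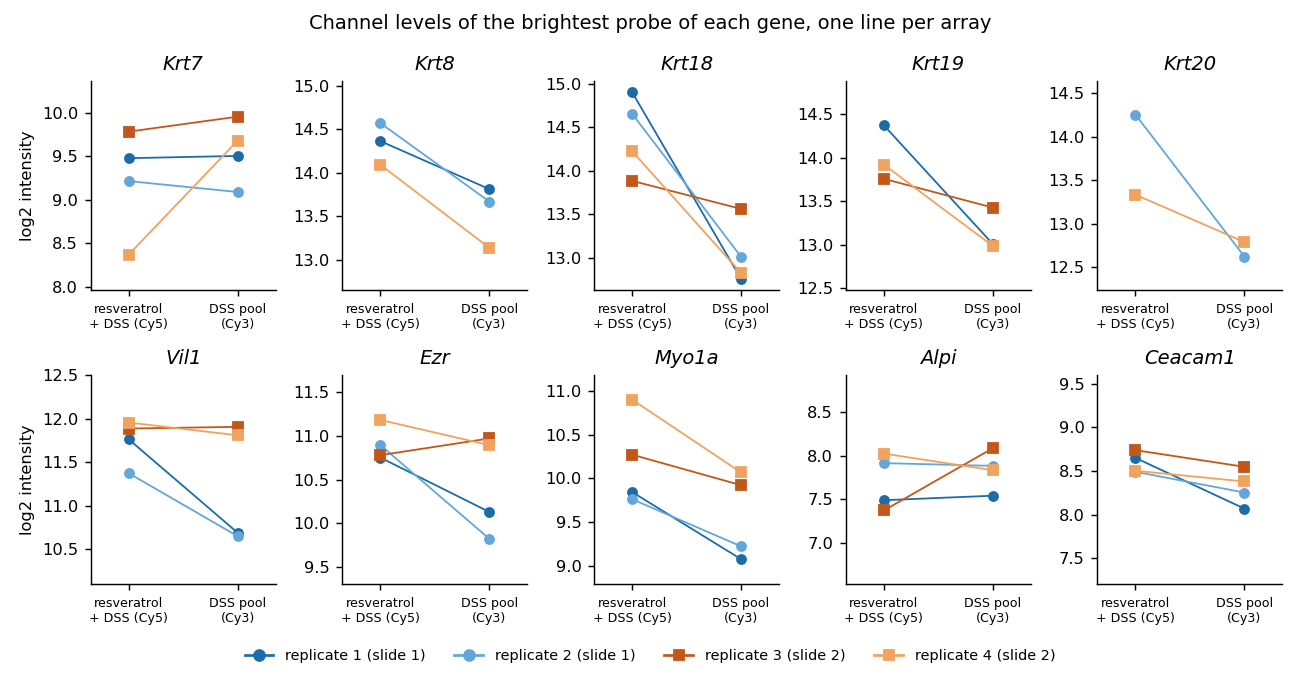
Log2 intensity of the brightest probe of each gene in Cy5 (resveratrol plus DSS, left) and Cy3 (DSS control pool, right), 1 line per array, each panel with its own axis. Levels of Krt8, Krt18, Krt19 and Krt20 are higher in Cy5 on every array shown (Krt18 on replicate 1 at 14.90 in Cy5 and 12.76 in Cy3), while those of Vil1 and Ezr on replicate 3 are nearly level.

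Among the apical genes, Myo1a was called higher. It encodes myosin 1a, the motor that tethers the microvillar actin core to the membrane. Its probe, at chr7:67730835-67730894 of rn3, is shown with the second Ezr probe, since these were the apical probes past the threshold.

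Myo1a probe: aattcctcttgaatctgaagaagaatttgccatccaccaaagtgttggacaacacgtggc
Ezr second probe: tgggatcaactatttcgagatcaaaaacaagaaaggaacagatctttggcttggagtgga

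Myo1a had log2 levels of 9.84, 9.76, 10.27 and 10.90 in the resveratrol plus DSS samples, against 9.07, 9.22, 9.92 and 10.07 in the control pool. The ranges overlap across arrays, but on each array the treated level was the higher. The log2 ratios of 0.77, 0.54, 0.35 and 0.84 averaged 0.62 ± 0.11 (n = 4), or 1.54-fold (limma adjusted p = 0.00945). The mean was 0.66 on slide 1 and 0.59 on slide 2, and the call held in each of the 4 omissions of an array.

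Vil1 (probe within chr9:73916096-73917827, rn3), which encodes the actin bundler villin, had log2 levels of 11.76, 11.37, 11.89 and 11.95 in the resveratrol plus DSS samples, against 10.69, 10.65, 11.91 and 11.81 in the control pool. Its log2 ratios were 1.07, 0.72, -0.02 and 0.15. Replicates 1 and 2 were clearly above 0 and replicates 3 and 4 near 0, so that the mean was 0.90 on slide 1 and 0.063 on slide 2. Over all arrays it was 0.48 ± 0.19 and did not pass (limma adjusted p = 0.0807), but it passed without replicate 3 (0.65, adjusted p = 0.0283).

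Ezr encodes ezrin, the linker between the plasma membrane and actin. At its brightest probe (chr1:41181252-41181311, rn3) the log2 ratios were 0.62, 1.07, -0.19 and 0.29, split by slide as for Vil1 (0.85 on slide 1, 0.049 on slide 2). The mean was 0.45 ± 0.20 (limma adjusted p = 0.106), and 0.66 without replicate 3 (0.0192). The second probe (chr1:41193648-41193707, rn3) gave 0.40, 0.47, 0.40 and 0.55, with both slides alike. Its mean of 0.45 ± 0.08 passed (limma adjusted p = 0.00957), although not without replicate 2 (0.0552). The 2 probes had nearly the same mean, differing by -0.0051 (SD 0.53, n = 4, exact sign-flip p = 1), and differed in their spread over arrays. With both probes averaged, Ezr passed (0.45, limma adjusted p = 0.0286).

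Ceacam1 (probe within chr1:80833600-80834135, rn3), a cell adhesion receptor of the apical membrane, had log2 ratios of 0.58, 0.24, 0.19 and 0.12. All 4 were above 0, with a mean of 0.28 ± 0.10 that did not pass (limma adjusted p = 0.0647). Alpi (chr9:86076477-86076536, rn3), the gene of an intestinal alkaline phosphatase, had log2 ratios of -0.05, 0.03, -0.71 and 0.19, and a mean of -0.14 ± 0.16 (limma adjusted p = 0.491, 95% interval -0.52 to 0.25). The Alpi probe was well above background on 1 of 4 arrays in Cy5 and on 2 of 4 in Cy3. Akp3, a second intestinal alkaline phosphatase gene of rodents, had log2 ratios of -0.17, -0.07, -1.06 and -0.40, all below 0. Its mean of -0.42 ± 0.17 did not pass (limma adjusted p = 0.0854).

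The values of the 4 keratins called higher came from bright spots and moved with how ratios were normalized by brightness. Among spots with a mean log2 intensity of at least 12, the scanner software had flagged 15.5%, 16.4%, 47.4% and 60.1% as outliers on replicates 1 to 4. On replicate 3 the flagged bright spots had a median centred log2 ratio of -1.51, against 0.57 for the unflagged ones. Relative to centring on that array's median, the loess curve subtracted a median of 1.07 from unflagged bright spots when flagged spots were left out. When flagged spots were kept it subtracted -1.34, which raised the unflagged bright spots. With flagged spots kept, replicate 3 gave 2.20 for Krt8, 2.66 for Krt18, 2.60 for Krt19, 2.19 for Krt20, 1.24 for Vil1 and 0.52 for Ezr. In the authors' deposited value table, replicate 3 gave 1.16 for Krt18, 1.09 for Krt19, 0.14 for Vil1 and -0.10 for Ezr.

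With flagged spots kept, 8 of the 10 genes were called higher, adding Vil1, Ezr and Ceacam1, and 0 lower, also at an unadjusted p under 0.05. Of all genes, 38.0% were called higher in that setting. Krt8 then had a mean of 1.44 where probes within 0.5 log2 units of its brightness had a median of 0.80. For Krt19 these were 1.77 and 0.47, and for Vil1 1.06 and 0.36. With each array centred on its median in place of loess, 7 were called higher, against 38.4% of all genes. That centring moved the median of all probes to 0.20, against -0.025 with loess. It raised probes of like brightness as well: probes within 0.5 log2 units of Krt8 had a median ratio of 0.66 under centring, against 0.047 with loess, where Krt8 itself had 1.30 and 0.80. Krt18 at its brightest probe had 2.01 under centring, where probes of like brightness had a median of 0.42. For Vil1 these were 1.06 and 0.49. Which curve describes the bright spots of slide 2 was not tested.

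**Figure D3:**
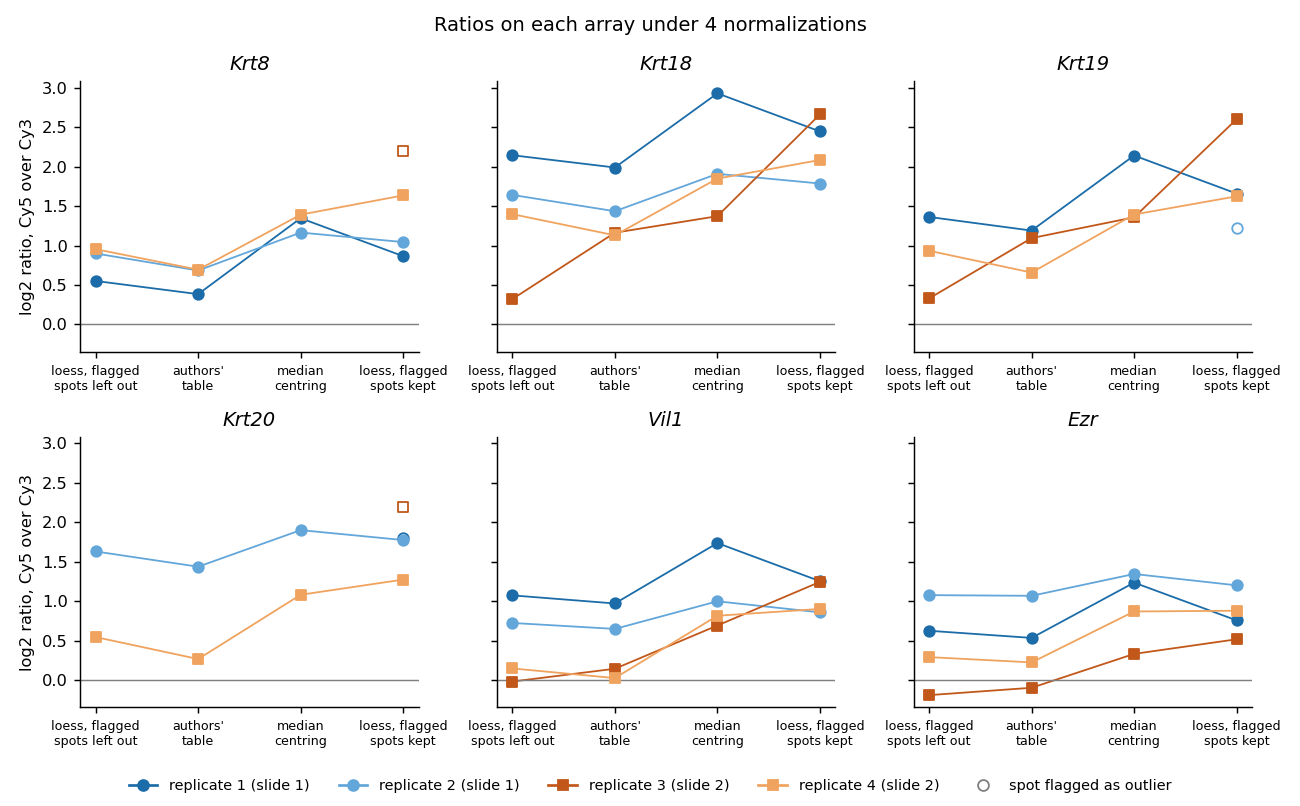
Log2 ratio, Cy5 (resveratrol plus DSS) over Cy3 (DSS control pool), of 6 genes on each array under loess without flagged spots, the authors' table, median centring and loess with flagged spots kept; open symbols are flagged spots. On replicate 3 Krt18 lies between 0.32 and 2.66 over the 4 settings, and on the other 3 arrays it stays above 1. Krt8 and Krt20 have a single value on replicate 3, from flagged spots.

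Related genes were counted in 7 lists. Of all genes, 25.7% were called higher and 19.6% lower, and a count near these shares sets no list apart. Other keratins had 2 higher and 2 lower of 7 tested. Krt13, a type I keratin of stratified mucosa, had log2 ratios of 1.78, 1.03, 1.16 and 2.03, with a mean of 1.50 ± 0.19 (limma adjusted p = 0.00504). Krt1, of stratified epithelium, had a mean of 0.61 ± 0.15 on the 2 arrays with values, and its call was lost with the slide as a block (limma adjusted p = 0.0539) and in the authors' table (0.146). Krt5, the basal keratin of stratified epithelium, was -0.44 ± 0.10 (n = 3), and Krt17, a keratin of basal and injured epithelium, was -0.39 ± 0.09.

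The proteins that tie keratin filaments to junctions had 6 higher of 13 tested and 0 lower (1 lower at an unadjusted p under 0.05). Dsp, the desmoplakin gene, had log2 ratios of 1.76, 1.43, 1.34 and 1.14, with a mean of 1.42 ± 0.12 (limma adjusted p = 0.00404). The desmosomal cadherin genes Dsc2 and Dsg2 had means of 0.99 ± 0.10 and 0.63 ± 0.12, and the plakophilin gene Pkp3 0.82 ± 0.11. The list's median was 0.24.

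Genes of the microvillus core and tip had 12 higher of 18 tested and 0 lower, also at an unadjusted p under 0.05, with a median of 0.46. Myo1d, a myosin related to Myo1a, had log2 ratios of 1.17, 1.02, 0.84 and 1.07 (mean 1.02 ± 0.09, limma adjusted p = 0.00409). Myo7b, the tip-link motor of the brush border, had a mean of 0.84 ± 0.10 and Myo5b, a motor of apical membrane traffic, 0.70 ± 0.09. Actb, the cytoplasmic actin gene, had 1.70, 1.47, 0.16 and 1.45 (mean 1.19 ± 0.26, limma adjusted p = 0.0161), with replicate 3 far below the other arrays. Its Cy5 spot was saturated on replicate 1, where the ratio may be too low. Its call was lost without replicate 1, 2 or 4.

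Ezrin's relatives and scaffolds had 1 higher and 1 lower of 5 tested. Nherf1, the scaffold that binds ezrin, had a mean of 0.61 ± 0.13, and Podxl, an apical sialomucin, -0.64 ± 0.13 (n = 2). Of the villin and gelsolin family 1 of 6 was higher, the villin-like gene Vill at 0.35 ± 0.09, and 0 were lower, also at an unadjusted p under 0.05.

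Of the brush border enzymes, 3 were higher and 4 lower of 13 tested, against 25.7% and 19.6% of all genes. The list's median was -0.11. The meprin gene Mep1a had log2 ratios of 0.51, 0.41, 0.93 and 1.10 (mean 0.74 ± 0.14, limma adjusted p = 0.0113), and the maltase-glucoamylase gene Mgam 0.76, 0.75, 0.57 and 0.80 (mean 0.72 ± 0.08). The aminopeptidase genes Anpep and Enpep had means of -0.59 ± 0.14 and -0.58 ± 0.13 on 2 arrays each. These peptidases are not confined to epithelium, and the cells behind the values of these and the other enzymes were not tested. The Enpep probe and the brightest Anpep probe had values on slide 1 alone. The Enpep call was lost with the slide as a block (limma adjusted p = 0.0502), and Anpep averaged over its 2 probes had -0.365 (0.0141).

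The CEACAM family and its phosphatases had 1 higher and 1 lower of 6 tested. Ceacam20, a brush border member of the family, had 2.47, 1.95, 1.10 and 2.43, all far above 0 (mean 1.99 ± 0.24, limma adjusted p = 0.00492), with its Cy5 spot saturated on replicate 4, where the ratio may be too low. Psg16, of the pregnancy-specific branch, was -0.79 ± 0.19 (n = 2). In all, 26 genes were higher and 8 lower of 68 in the 7 lists, against 25.7% and 19.6% of all genes. These counts were 39 and 3 with each array centred on its median, where 38.4% of all genes were higher. With flagged spots kept they were 39 and 9, where 38.0% of all genes were higher. Of the 21 genes named by the largest ratios, as far as they still had values, 7 missed the threshold without replicate 2 (Krt5, Krt17, Dsg2, Actb, Nherf1, Vill and Psg16) and 4 without replicate 1 (Krt5, Krt17, Actb and Vill). Without replicate 4 these were 2 (Krt17 and Actb), and without replicate 3 it was 1 (Krt5), with adjusted p between 0.0502 and 0.110 in all of these cases. With each array centred on its median, Krt5, Krt17, Podxl, Anpep and Enpep were no longer called.

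**Figure D4:**
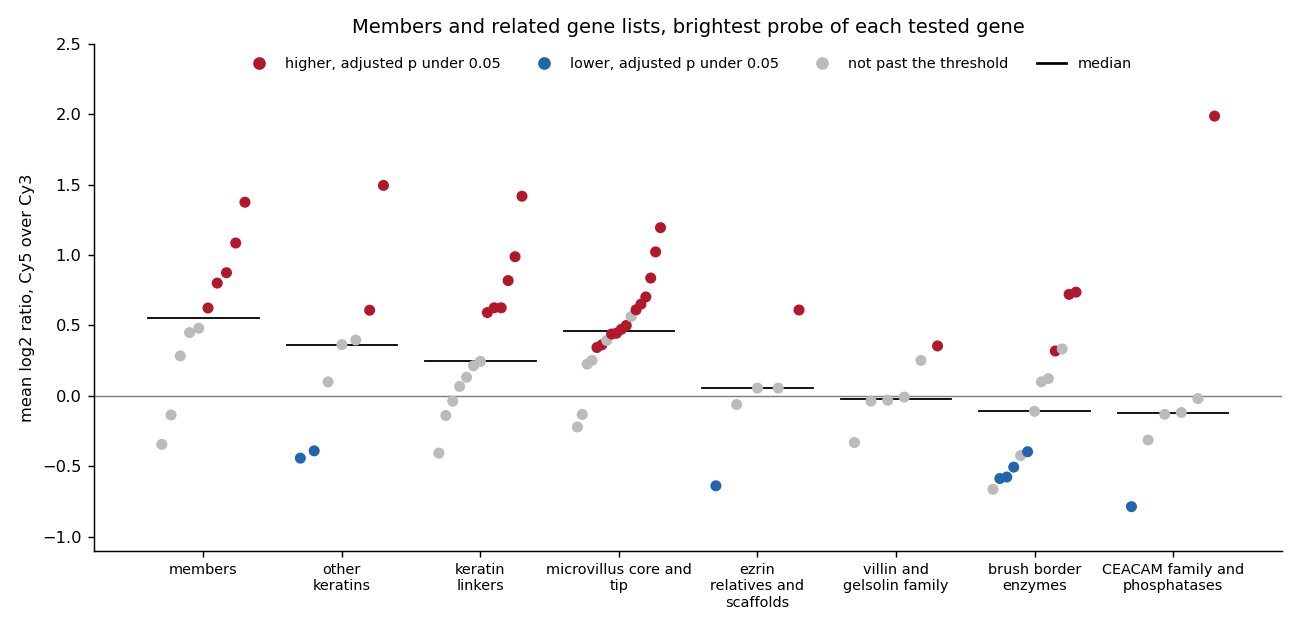
Mean log2 ratio, Cy5 (resveratrol plus DSS) over Cy3 (DSS control pool), of each tested gene in the set and in the 7 related lists, with genes called higher in red, called lower in blue, others in grey, and a black line at each list's median. The microvillus list holds 12 red points of 18 and a median of 0.46, while brush border enzymes hold 3 red and 4 blue points of 13.

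Markers of cell types were counted in the same samples. Of all genes, 25.7% were higher and 19.6% lower, and in lists this small a count near these shares is not a result about a cell type. Epithelial markers had 3 of 8 higher (Cldn3, Cldn7 and Elf3) and 0 lower, also at an unadjusted p under 0.05, with a median of 0.49. Their summed level over the 6 genes with values on all arrays was 53716 to 72449 in the resveratrol plus DSS samples, against 33339 to 51223 in the control pool, in linear intensity. Epcam and Cdh1, which define epithelium, had 0.46 ± 0.19 and 0.08 ± 0.24 and did not pass. Of the goblet cell markers 2 of 4 rose and 0 fell, also at an unadjusted p under 0.05, while squamous markers had 1 higher (Krt13) and 1 lower (Krt5) of 4, with Krt4 not well above background on any array. Krt13 and Krt5 stand in both the squamous and the other keratin list.

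Fibroblast and matrix markers had 7 of 8 lower. Over the 7 genes with values on all arrays, sums were 2803 to 5154 in the resveratrol plus DSS samples, against 7517 to 16894 in the control pool. These sums leave out Col1a1, which was not lower at its brightest probe (0.22 ± 0.12, n = 3). Col1a1 was brighter than any gene summed, with mean log2 levels of 14.23 in Cy5 and 14.01 in Cy3. Its 3 probes had means from -2.71 to 0.22. Neutrophil markers had 5 of 6 lower, with sums over the 4 genes with values on all arrays of 2052 to 3012 against 7872 to 13355. Macrophage markers had 5 of 6 lower. Pancreatic markers had 4 of 4 lower, erythrocyte markers 3 of 3, smooth muscle markers 1 of 5 and mesothelial markers 1 of 2. The share lower among all genes was 19.6%. The part of these shifts in the keratin and brush border values was not tested. In tissue RNA, fewer cells of a type and less RNA per cell cannot be told apart.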

How the data were processed

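Deposited values are spot intensities from 1 scanner file per array (Agilent Feature Extraction 9.5.3.1), with probe positions in build rn3, per the file headers. The deposited log10 ratios and the processed intensity values, background-subtracted and dye-normalized per the file headers, served as checks. The authors' table of log2 ratios matched the scanner's (r from 0.98 to 0.99, slopes 0.97 to 1.00), with column medians of -0.01, -0.01, 0.09 and -0.02; its centring is not stated. Of all spots, 44.1% to 49.2% were well above background in Cy5 and 42.8% to 57.1% in Cy3, and 3.45% to 13.7% were flagged. The number of arrays limits precision.

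Mean signals were corrected with normexp (offset 50) and normalized by loess (limma 3.58.1, R 4.3.3), leaving out 1639 control spots and flagged spots. A probe well above background in 1 channel on at least 3 of 4 arrays with at least 2 values was tested (18869 of 41012) with lmFit and eBayes against 0, two-sided, adjusted by Benjamini-Hochberg at 0.05. Channel levels are log2 intensities after loess and Aquantile. Names came from the RefSeq table of GRCr8. Replicates are numbered by accession order, and each pools different rats, so the spread over arrays includes biological spread.

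The genes and lists were chosen with earlier results of these data known. All 10 genes with every probe, and per related list up to 4 called genes with the largest mean ratios, were named; Akp3, Epcam and Cdh1 were added after their values were seen. Alternatives were other background corrections, normalizations, filters, flags and priors, the authors' table, omitted arrays, the slide, a wider error and the mean over a gene's probes.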

Additional observations from a re-analysis of the deposited data

Results flagged for a closer look

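The log2 ratio of Actb on replicate 3, 0.16, lay far from the other 3 arrays (1.70, 1.47 and 1.45), beyond Dixon's 95% limit for 4 values. The Cy5 spot was saturated on replicate 1. It was 1 of 24 probes examined, and chance alone flags about 1 in 20. The moderated standard error of Actb was 0.26 as reported, 0.13 in the authors' table and 0.18 with the scanner's processed signals. Whether the gap on replicate 3 comes from how bright spots were normalized was not tested.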

How the results depend on the processing

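The count of called genes among the 10, 5 as reported, was 5 with the scanner's processed signals (Ceacam1 in place of Krt20), 6 with the mean over probes (Ezr added), 4 without background correction, with both channels required above background, in the authors' table and with a prior that follows intensity (Krt20 lost in each), and 5 with slide fitted as a random block or with no filter. The count was 8 with outlier spots kept, 8 with flagged spots used for the curve only (chosen after seeing the data) and 0 on slide 2 alone. It was 1 (Krt8, limma adjusted p = 0.04999) with the standard error times the square root of 2. That factor stands for a control pool with as much error as the mean of the 4 treated arrays. A control as variable as 1 treated array would need a wider error, which was not tried. Leaving out 1 array gave 3 to 7. Of 18869 probes, 4597 were called higher as reported, 4759 with processed signals and 4562 without background correction. With the prior that follows intensity these were 4784, and with the slide as a block 3759. They were 5405 of 24194 in the authors' table, 6025 of 39472 with no filter and 2584 of 13119 with both channels above background. No such count was made for the mean over probes. All probes called, 8886, became 4551 with both channels above background, 1749 on slide 2, 2180 with the wider error, 3410 to 8964 with 1 array left out and 13127 with outlier spots kept (of 20409 tested, 6885 higher and 6242 lower). The 34 related genes called became 9 on slide 2, 10 with the wider error, 12 to 37 with 1 array left out and 28 with the slide as a block. They became 42 on slide 1, 42 with median centring, 48 with outlier spots kept and 46 with these in the curve only. Median centring gave 6852 probes higher and 1839 lower, flagged spots in the curve only 6892 and 4210, and loess 4597 and 4289. Krt7 changed sign on slide 1 alone (0.050, adjusted p = 0.699) and Alpi without replicate 3 (0.057, adjusted p = 0.648; -0.24 to 0.057 with 1 array left out), neither called in any alternative. The causes were not tested. Each ratio compares treated and control RNA on the same array. No pairing between arrays was possible because all arrays belong to 1 group. Spots near background, as for Alpi, limit what can be seen.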
